A study of Homo sapiens with 12 samples.

Results

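The genes described here encode 10 components that start and end the integrated stress response: the 4 eIF2alpha kinases EIF2AK1, EIF2AK2, EIF2AK3 and EIF2AK4, the mitochondrial relay DELE1, the eIF2 subunits EIF2S1 and EIF2S2, the eIF2B subunit EIF2B5, and the phosphatase subunits PPP1R15A and PPP1R15B. They were chosen by name and were found by Entrez identifier. All 10 were among the 26258 identifiers of the deposited expression table, and all 10 were among the 13515 genes that reached at least 1 CPM in at least 2 libraries and were tested. CPM is the number of reads of a gene scaled so that every library sums to 1000000.

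RNA was sequenced from HLE cells, an established human hepatocellular carcinoma line. The cells had received either control siRNA (siCtrl), siRNA that targeted YAP together with TAZ (siYAP/TAZ, here siY/T), or siRNA that targeted ATF4 (siATF4), and were kept in DMSO, the solvent, or in 5 µM Sorafenib (Srf), a multikinase inhibitor given in advanced liver cancer. Each of the 6 groups had 2 libraries, 12 in all, and every group had gone through siRNA transfection. The siRNAs lower their targets without removing them, and all groups come from a single cell line. The study's methods speak of biological replicates, but their number there differs from the 2 libraries per group of the labels, and the labels do not say whether these 2 came from separate cultures, so the p-values may measure technical spread only.

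The integrated stress response is a brake on translation. Each of its kinases senses a different strain, and each phosphorylates the alpha subunit of eIF2, the factor that carries the initiator tRNA to the ribosome. Phosphorylated eIF2 holds its own exchange factor, eIF2B, so less active eIF2 is made, bulk translation falls, and the open reading frames upstream of the ATF4 coding sequence let the ATF4 protein be made. PPP1R15A and PPP1R15B guide protein phosphatase 1 to eIF2alpha and remove the phosphate again. The libraries measure the mRNA of these genes, so they hold no value for kinase activity or for eIF2alpha phosphorylation.

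The libraries held 41408348 to 53619732 reads on genes, and 1 read was worth 0.0186 to 0.0241 CPM. No member had fewer than 822 reads in a library. The siRNA targets followed their labels. YAP1 was between 259 and 279.9 CPM in the 4 siCtrl libraries and between 46.6 and 57.7 CPM in the 4 siY/T libraries. WWTR1, the gene of TAZ, was between 145 and 173 CPM and between 49.3 and 68.6 CPM in the same libraries. ATF4 was at 248 and 249 CPM in control cells kept in DMSO against 96.2 and 101 CPM in siATF4 DMSO cells, and at 484 and 492 CPM in siCtrl Srf cells against 84.5 and 90.6 CPM in siATF4 Srf cells. The libraries of siY/T DMSO cells stood farthest apart, with an SD of their log2 difference over genes of 0.190 against 0.111 to 0.132 in the other groups. All 8 hepatocyte markers looked up (ALB, AFP, APOA1, APOB, TTR, TF, HNF4A and CYP3A4) stayed below 1 CPM in every library, as did EPCAM, while keratin genes and vimentin were abundant, so the hepatocyte label rests on the line's origin and not on these transcripts. The leukocyte genes PTPRC and CD3E and the 3 endothelial markers were also below 1 CPM. CD68, the remaining leukocyte marker, was at 19.8 to 23.3 CPM in siCtrl and 61.3 to 75.0 CPM in siATF4 libraries, and its part in the results below was not tested. The siRNAs also went with changes of the other targets. With siATF4 in DMSO, WWTR1 fell by 0.70 and YAP1 by 0.22, while in Sorafenib neither was called, at -0.091 and 0.0049. With siY/T, ATF4 fell by 0.30 in DMSO and by 0.63 in Sorafenib. In these bulk libraries, fewer cells of a type and less RNA per cell cannot be told apart.

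On GRCh37 with GENCODE genes, EIF2AK1 lies at chr7:6061878-6098806, EIF2AK2 at chr2:37326353-37384665, EIF2AK3 at chr2:88856259-88991036, PPP1R15B at chr1:204365620-204381015 and EIF2S2 at chr20:32676115-32700049, all on the minus strand. On the plus strand lie EIF2AK4 at chr15:40226316-40327792, DELE1 at chr5:141303420-141321612, EIF2S1 at chr14:67827045-67853233, EIF2B5 at chr3:183852826-183863915 and PPP1R15A at chr19:49375469-49379316. Exons of EIF2AK1 overlap AIMP2, those of EIF2AK2 overlap GPATCH11, those of EIF2S2 overlap RALY, and those of EIF2AK3 and PPP1R15B overlap long noncoding RNAs, in each case on the opposite strand. The kit keeps strand, but whether the counting used it is not given in the sources used here, so reads of these pairs may not be separated. PPP1R15A, EIF2S1, EIF2B5, DELE1 and EIF2AK4 have no exon shared with a neighbour.

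Promoter windows of RefSeq (GRCh38.p14, 250 bases before to 50 bases after the gene start) were found for 8 of the 10 genes, and each window matched GRCh37 exactly once. EIF2AK1 and EIF2S2 had no entry. A set of 5 sequence motifs were looked for on both strands. The C/EBP-ATF element TGATGNAA occurred in 3.67% of the 27305 windows of all genes, the core TGACG of the cAMP response element in 25%, the TEAD element GGAATG in 14%, the interferon-stimulated response element GAAANNGAAA in 3.65% and the ER stress response element in 0.0806%. The windows shown are those of the paired phosphatase genes, which differed most in their response, of DELE1 and EIF2S1, whose Sorafenib responses differed with the siRNA, and of EIF2AK2, an interferon-stimulated gene. Capitals mark the motif matches, and each window is written in the direction of its gene. The positions printed with the windows are those of their matches on GRCh37.
PPP1R15A, chr19:49375428-49375727, plus strand: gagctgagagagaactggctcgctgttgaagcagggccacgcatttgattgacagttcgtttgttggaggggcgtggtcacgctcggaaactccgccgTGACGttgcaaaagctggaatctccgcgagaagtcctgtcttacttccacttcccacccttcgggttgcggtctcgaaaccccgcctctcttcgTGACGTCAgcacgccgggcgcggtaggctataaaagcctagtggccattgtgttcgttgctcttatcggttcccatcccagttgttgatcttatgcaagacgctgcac
PPP1R15B, chr1:204380896-204381195, minus strand: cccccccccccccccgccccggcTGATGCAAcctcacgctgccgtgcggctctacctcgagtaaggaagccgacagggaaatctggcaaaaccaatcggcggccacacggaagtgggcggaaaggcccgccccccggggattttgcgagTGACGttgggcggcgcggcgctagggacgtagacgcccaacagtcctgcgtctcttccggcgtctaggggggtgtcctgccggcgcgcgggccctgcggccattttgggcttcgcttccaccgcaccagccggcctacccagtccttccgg
DELE1, chr5:141303186-141303485, plus strand: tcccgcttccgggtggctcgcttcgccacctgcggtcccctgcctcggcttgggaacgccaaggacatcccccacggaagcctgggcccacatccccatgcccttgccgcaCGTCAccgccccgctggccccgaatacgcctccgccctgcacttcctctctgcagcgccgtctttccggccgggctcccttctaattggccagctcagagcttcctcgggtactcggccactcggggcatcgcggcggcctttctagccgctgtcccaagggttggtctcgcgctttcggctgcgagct
EIF2S1, chr14:67826795-67827094, plus strand: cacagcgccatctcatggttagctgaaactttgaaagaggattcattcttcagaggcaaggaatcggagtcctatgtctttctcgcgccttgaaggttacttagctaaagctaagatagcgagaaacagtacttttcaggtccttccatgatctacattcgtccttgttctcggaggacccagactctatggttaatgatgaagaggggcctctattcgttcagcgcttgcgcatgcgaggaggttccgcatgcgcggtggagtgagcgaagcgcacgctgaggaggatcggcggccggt
EIF2AK2, chr2:37384074-37384373, minus strand: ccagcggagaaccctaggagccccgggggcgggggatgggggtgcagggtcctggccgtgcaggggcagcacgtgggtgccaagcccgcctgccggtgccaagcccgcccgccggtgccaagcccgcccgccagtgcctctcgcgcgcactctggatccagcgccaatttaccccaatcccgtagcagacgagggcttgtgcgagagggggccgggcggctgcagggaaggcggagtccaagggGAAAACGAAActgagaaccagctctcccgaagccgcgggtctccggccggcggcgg
In the PPP1R15A window TGACG lay at -152 and again at -58 from the start, and the latter overlapped its own reverse complement CGTCA at -55, so that the stretch reads TGACGTCA. The PPP1R15B window held TGATGCAA at -227 and TGACG at -101. DELE1 held CGTCA at -139, EIF2AK2 held the interferon-stimulated response element at -6, and EIF2AK4, not shown, held the reverse complement of the TEAD element at -224. These letters were not found in the windows of EIF2S1, EIF2AK3 and EIF2B5. A match is a description of the letters and not of binding.

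The level of each gene per length was compared first, as mean CPM per kilobase of merged exons. In siCtrl DMSO cells, EIF2S2 was the most abundant at 111 ± 0.44 (SD, n = 2), followed by EIF2AK1 at 45.3 ± 0.15 and EIF2S1 at 27.0 ± 0.25. DELE1 at 16.9 ± 0.090 and EIF2B5 at 16.8 ± 0.63 did not differ beyond their spread, nor did EIF2AK4 at 14.6 ± 0.079 and PPP1R15A at 14.0 ± 0.70. PPP1R15B at 9.31 ± 0.23, EIF2AK2 at 5.42 ± 0.050 and EIF2AK3 at 4.07 ± 0.067 were the lowest. The order in the middle depended on the gene model: per kilobase of the MANE Select transcript, PPP1R15A was at 20.5 and came before EIF2AK4, EIF2B5 and DELE1. Among the kinases, EIF2AK1 made up 65.3% of the summed level per length in siCtrl DMSO cells, against 21.0% for EIF2AK4, 7.81% for EIF2AK2 and 5.86% for EIF2AK3. The EIF2AK1 share was lowest in siATF4 DMSO cells at 58.8% and highest in siY/T Srf cells at 68.9%. These shares also depended on the gene model. Per kilobase of the MANE Select transcript, EIF2AK1 made up 59.9987% and EIF2AK4 26.2% in siCtrl DMSO cells. On that basis the EIF2AK1 share was again lowest in siATF4 DMSO cells, at 53.3%, and highest in siY/T Srf cells, at 63.6%. In siATF4 cells PPP1R15A moved up to the second place of the 10, at 72.1 ± 3.2 CPM per kilobase in DMSO and 59.7 ± 4.9 in Srf.

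**Figure D1:**
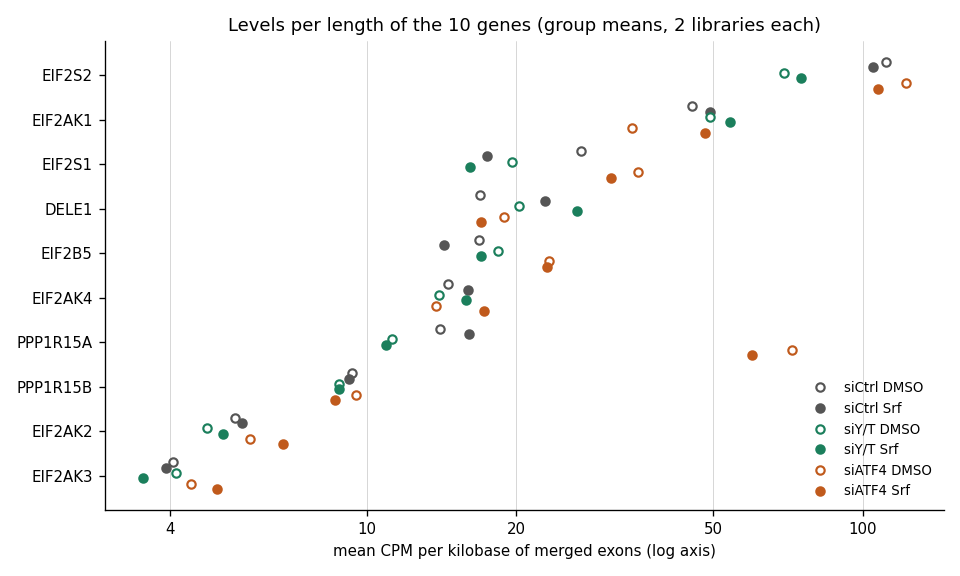
Mean CPM per kilobase of merged exons (log axis) of each of the 10 genes in the 6 groups, where open points are DMSO, filled points are Srf and colours give the siRNA. EIF2S2 lies highest in every group and EIF2AK3 lowest, and PPP1R15A in siATF4 cells lies apart from its other groups.

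The values of the 10 genes in every library are shown in the panels of CPM by group. The widest range belonged to PPP1R15A, whose highest group mean was 6.60 times its lowest, followed by EIF2S1 at 2.18 times, EIF2S2 at 1.76, EIF2B5 at 1.63, EIF2AK1 at 1.58 and DELE1 at 1.57. PPP1R15B had the narrowest, at 1.10 times.

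**Figure D2:**
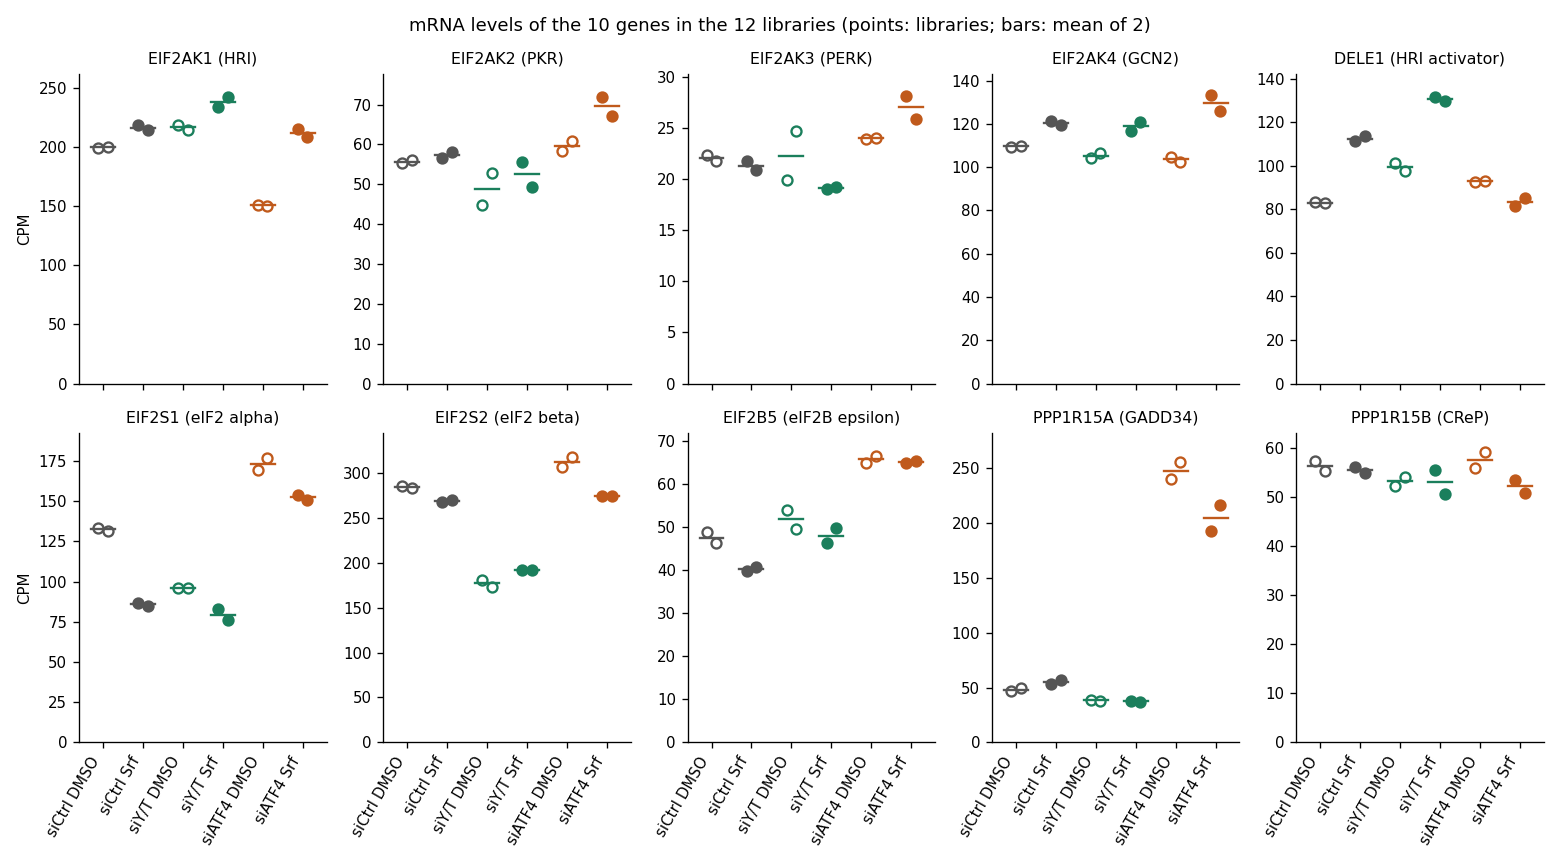
CPM of each gene in each library (points, 2 per group) with the group mean (bar), on axes from 0, where open points are DMSO and filled points are Srf. PPP1R15A is at 193 to 255 CPM in the 4 siATF4 libraries and at 36.9 to 57.3 CPM in the other 8, while PPP1R15B stays between 50.6 and 59.2 CPM in all 12.

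EIF2AK1 encodes HRI, the kinase that senses lack of heme and, through DELE1, mitochondrial damage. Its values were 199 and 200.4 CPM in siCtrl DMSO, 218 and 215 in siCtrl Srf, 219 and 215 in siY/T DMSO, 234 and 243 in siY/T Srf, 151 and 150.0 in siATF4 DMSO and 216 and 209 CPM in siATF4 Srf cells. The libraries of siATF4 DMSO cells lay below all others. EIF2AK1 fell by 0.41 on the log2 scale in siATF4 against siCtrl DMSO cells (SE 0.038, limma adjusted p = 7.36e-07), and it rose by 0.49 with Sorafenib in siATF4 cells (SE 0.038, adjusted p = 5.38e-07). In Sorafenib, siATF4 and siCtrl cells overlapped, with a difference of -0.029 and a 95% interval of -0.11 to 0.054. The rise with Sorafenib was 0.38 larger in siATF4 than in siCtrl cells (SE 0.054, adjusted p of the interaction 0.00015).

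EIF2AK2 encodes PKR, the kinase that senses double-stranded RNA and is itself induced by interferon. It was at 55.3 and 56.1 CPM in siCtrl DMSO, 56.6 and 58.1 in siCtrl Srf, 44.8 and 52.7 in siY/T DMSO, 55.6 and 49.4 in siY/T Srf, 58.4 and 60.7 in siATF4 DMSO and 72.0 and 67.1 CPM in siATF4 Srf cells. The siATF4 Srf libraries were the highest. There it was 0.28 above siCtrl Srf cells (SE 0.074, adjusted p = 0.00423) and 0.22 above siATF4 DMSO cells (SE 0.074, adjusted p = 0.0237), of which the latter call was lost without siATF4 DMSO replicate 1 (adjusted p = 0.128), siATF4 DMSO replicate 2 (0.058) or siATF4 Srf replicate 1 (0.168), and with no filter on low genes (0.0583). EIF2AK3 encodes PERK, the kinase of the endoplasmic reticulum that senses unfolded proteins. It was the rarest member, between 19.0 and 28.1 CPM, with 28.1 and 25.9 CPM in siATF4 Srf against 21.8 and 20.8 CPM in siCtrl Srf cells. That difference was 0.33 (SE 0.083, adjusted p = 0.00262).

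EIF2AK4 encodes GCN2, the kinase that senses uncharged tRNA when amino acids run short. It was at 109 and 110.0 CPM in siCtrl DMSO, 121 and 119 in siCtrl Srf, 104 and 106 in siY/T DMSO, 117 and 121 in siY/T Srf, 105 and 102 in siATF4 DMSO and 134 and 126 CPM in siATF4 Srf cells. In all 3 siRNA conditions both Srf libraries lay above both DMSO libraries. The rise with Sorafenib was 0.13 in siCtrl (SE 0.043, adjusted p = 0.015), 0.18 in siY/T (SE 0.043, adjusted p = 0.00388) and 0.32 in siATF4 cells (SE 0.043, adjusted p = 4.8e-05). The rise in siCtrl cells was not called with TMM scaling (0.10, adjusted p = 0.0525), edgeR (0.10, adjusted p = 0.0574) or DESeq2 (0.092, adjusted p = 0.13), nor when any of 3 single libraries was left out. The interaction for siATF4 was 0.19 (SE 0.060, adjusted p = 0.0245) but was lost when any of 6 single libraries was left out, with adjusted p of up to 0.099 without siATF4 Srf replicate 1, and after quantile normalization (0.0959).

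DELE1 is the mitochondrial protein that OMA1 cleaves under stress and that then activates HRI. Its values were 83.4 and 82.8 CPM in siCtrl DMSO, 111 and 114 in siCtrl Srf, 101 and 97.5 in siY/T DMSO, 132 and 129.7 in siY/T Srf, 92.7 and 93.1 in siATF4 DMSO and 81.5 and 85.4 CPM in siATF4 Srf cells. Sorafenib libraries were higher than DMSO libraries in siCtrl and siY/T cells and lower in siATF4 cells. DELE1 rose with Sorafenib by 0.43 in siCtrl (SE 0.042, adjusted p = 1.45e-06) and by 0.39 in siY/T cells (SE 0.042, adjusted p = 7.6e-06), and fell by 0.15 in siATF4 cells (SE 0.042, adjusted p = 0.00812). The effects in siATF4 and siCtrl cells differed by -0.59 (SE 0.059, adjusted p of the interaction 1.12e-05), and those in siY/T and siCtrl cells by -0.042 with a 95% interval of -0.17 to 0.087. Relative to siCtrl, siATF4 cells had more DELE1 in DMSO, by 0.16 (adjusted p = 0.00425), and less in Sorafenib, by -0.43 (adjusted p = 8.03e-07). The fall within siATF4 cells lost its call without siATF4 DMSO replicate 2 (adjusted p = 0.0513) or siATF4 Srf replicate 1 (0.0758), whereas the interaction passed in all 23 other fits.

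EIF2S1 encodes eIF2alpha, the substrate of the kinases. It was at 133 and 132 CPM in siCtrl DMSO, 86.6 and 85.0 in siCtrl Srf, 96.1 and 96.2 in siY/T DMSO, 82.8 and 75.8 in siY/T Srf, 169 and 177 in siATF4 DMSO and 154 and 151 CPM in siATF4 Srf cells. The siATF4 libraries were the highest, and the siCtrl Srf and both siY/T groups the lowest. With Sorafenib, EIF2S1 fell by 0.62 in siCtrl cells (SE 0.047, adjusted p = 1.68e-07), fell by 0.28 in siY/T (SE 0.047, adjusted p = 0.000296) and fell by 0.18 in siATF4 cells (SE 0.047, adjusted p = 0.00583). The fall was smaller than in siCtrl cells by 0.35 in siY/T (SE 0.066, adjusted p of the interaction 0.00345) and by 0.44 in siATF4 cells (SE 0.066, adjusted p 0.000212). Against siCtrl, siATF4 cells had 0.38 more in DMSO (adjusted p = 8.85e-06) and 0.82 more in Sorafenib (adjusted p = 4.4e-09). With siY/T, EIF2S1 fell by 0.46 in DMSO (SE 0.047, adjusted p = 2.73e-06), and the difference of -0.11 in Sorafenib had an adjusted p of 0.0599. The latter was called in 8 of the 23 other fits, at -0.17 with TMM scaling (adjusted p = 0.0102), quantile normalization (0.00888), edgeR (0.0124) and DESeq2 (0.0134). Without siATF4 DMSO replicate 2, the Sorafenib effect in siATF4 cells was -0.15 with an adjusted p of 0.0671.

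EIF2S2 encodes the beta subunit of eIF2, which contacts eIF5 and eIF2B. Its values were 285 and 284 CPM in siCtrl DMSO, 267 and 270.0 in siCtrl Srf, 181 and 173 in siY/T DMSO, 192 and 191 in siY/T Srf, 306 and 318 in siATF4 DMSO and 274 and 274 CPM in siATF4 Srf cells. The 4 siY/T libraries lay below the other 8. With siY/T the level fell by 0.68 in DMSO (SE 0.038, adjusted p = 1.62e-08) and by 0.49 in Sorafenib (SE 0.038, adjusted p = 4.21e-07). The interaction of 0.20 (SE 0.054, adjusted p = 0.0214) was lost after quantile normalization (0.13, adjusted p = 0.102) and when any of 5 single libraries was left out, with adjusted p of 0.0575 to 0.07. The libraries left out there were both of siCtrl DMSO, both of siCtrl Srf and siY/T Srf replicate 1. With Sorafenib in siCtrl cells EIF2S2 changed by -0.082 (limma adjusted p = 0.0762), and this was called in 6 of the 23 other fits. Among them were TMM scaling (-0.11, adjusted p = 0.0304), edgeR (-0.11, adjusted p = 0.0329) and DESeq2 (-0.12, adjusted p = 0.0238). After quantile normalization it was 0.020.

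Within a library, the ratio of EIF2S1 to EIF2S2 CPM follows the balance of the alpha and beta mRNAs without the scaling between libraries. It was 0.468 and 0.465 in siCtrl DMSO and 0.324 and 0.315 in siCtrl Srf cells. In siY/T cells it went from 0.531 and 0.555 in DMSO to 0.432 and 0.397 in Srf, and in siATF4 cells it was 0.552 and 0.556 in DMSO and 0.562 and 0.551 in Srf. The DMSO and Srf libraries of siATF4 cells overlapped in this ratio, and those of siCtrl and of siY/T cells did not.

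EIF2B5 encodes the catalytic epsilon subunit of eIF2B, the exchange factor that phosphorylated eIF2 inhibits. It was at 48.9 and 46.4 CPM in siCtrl DMSO, 39.9 and 40.9 in siCtrl Srf, 54.1 and 49.7 in siY/T DMSO, 46.5 and 49.7 in siY/T Srf, 65.1 and 66.6 in siATF4 DMSO and 65.0 and 65.5 CPM in siATF4 Srf cells. All 4 siATF4 libraries were above the other 8. EIF2B5 was higher with siATF4 by 0.46 in DMSO (SE 0.055, adjusted p = 6.48e-06) and by 0.69 in Sorafenib (SE 0.055, adjusted p = 1.16e-07), and with Sorafenib it fell in siCtrl cells by 0.23 (SE 0.055, adjusted p = 0.00229). In siATF4 cells the Sorafenib effect was -0.012 with a 95% interval of -0.13 to 0.11. The interaction of 0.22 (SE 0.078, adjusted p = 0.036) was lost when any of 7 single libraries was left out, with adjusted p of up to 0.135 without siCtrl DMSO replicate 1, after quantile normalization (0.0607) and with DESeq2 (0.0509).

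PPP1R15A encodes GADD34, the inducible subunit that brings protein phosphatase 1 to eIF2alpha and so ends the response. It was at 46.5 and 49.9 CPM in siCtrl DMSO, 52.8 and 57.3 in siCtrl Srf, 39.1 and 38.2 in siY/T DMSO, 38.1 and 36.9 in siY/T Srf, 239.9 and 255 in siATF4 DMSO and 193 and 217 CPM in siATF4 Srf cells. The 4 siATF4 libraries stood far above the rest, and the 4 siY/T libraries were the lowest. With siATF4 it rose by 2.35 in DMSO (SE 0.063, adjusted p = 9.88e-12), a 5.10-fold change, and by 1.89 in Sorafenib (SE 0.063, adjusted p = 4.66e-11), a 3.70-fold change. In DMSO it ranked 18 from the top of the 13515 genes by log2 change, and in Sorafenib 34. ATF4 and CHOP are known activators of this gene, and the ATF4 mRNA was lower in these cells, as given above. With siY/T it fell by 0.32 in DMSO (SE 0.063, adjusted p = 0.000788) and by 0.55 in Sorafenib (SE 0.063, adjusted p = 1.33e-05).

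The response of PPP1R15A to Sorafenib was small. It rose by 0.19 in siCtrl cells (SE 0.063, adjusted p = 0.0183), a call that was lost without siCtrl DMSO replicate 1 (adjusted p = 0.154) or siCtrl Srf replicate 2 (0.164), and on the recovered reads with edgeR (0.0521) or DESeq2 (0.0723). In siATF4 cells it fell by 0.27 (SE 0.063, adjusted p = 0.00284), and the effects in siATF4 and siCtrl cells differed by -0.46 (SE 0.089, adjusted p of the interaction 0.00123). In siY/T cells the change was -0.041 with a 95% interval of -0.18 to 0.095.

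PPP1R15B encodes CReP, the constitutive partner of GADD34 in the same phosphatase. Its lowest library was at 50.6 CPM (siY/T Srf) and its highest at 59.2 CPM (siATF4 DMSO). It passed in 0 of the 7 comparisons by limma, with 1 at an unadjusted p under 0.05, the change of -0.14 with Sorafenib in siATF4 cells (adjusted p = 0.052). That comparison passed in 11 of the 23 other fits, among them edgeR (-0.17, adjusted p = 0.0202) and DESeq2 (-0.17, adjusted p = 0.0238) on the recovered reads. With siY/T in DMSO the difference was -0.082 by limma and passed with TMM scaling (-0.14, adjusted p = 0.0394), quantile normalization (-0.14, adjusted p = 0.0379), edgeR (-0.14, adjusted p = 0.0374) and DESeq2 (-0.16, adjusted p = 0.0347), and with siY/T in Sorafenib it was -0.068 and passed after quantile normalization (-0.15, adjusted p = 0.0341). By limma, the 95% intervals of these 2 and the other 4 differences lay between -0.21 and 0.15. The ratio of PPP1R15A to PPP1R15B CPM was 0.810 and 0.901 in siCtrl DMSO and 0.940 and 1.04 in siCtrl Srf cells, against 4.28 and 4.31 in siATF4 DMSO and 3.60 and 4.26 in siATF4 Srf cells. With siY/T it was 0.746 and 0.705 in DMSO and 0.686 and 0.730 in Srf.

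**Figure D3:**
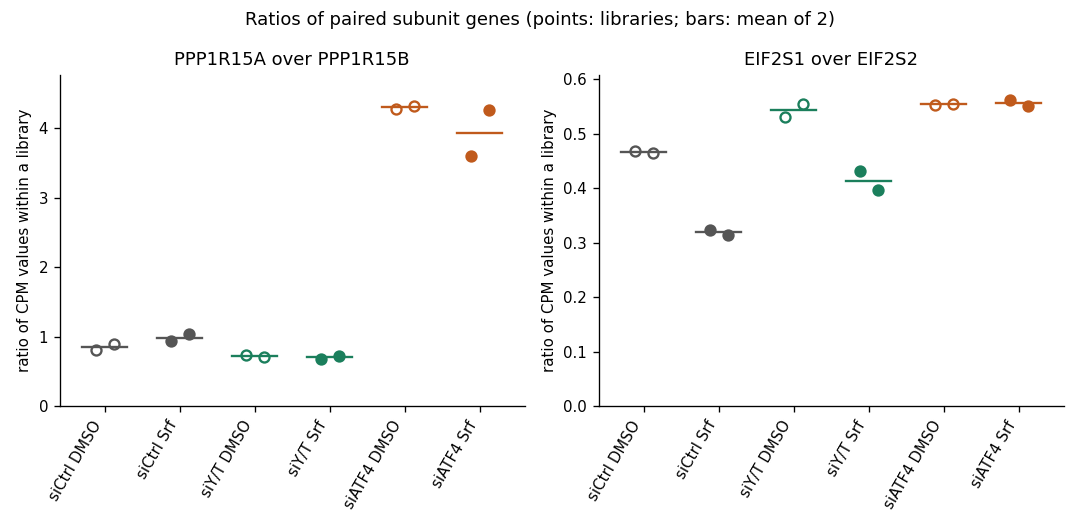
Ratio of PPP1R15A to PPP1R15B CPM (left) and of EIF2S1 to EIF2S2 CPM (right) within each library, with the group mean as a bar and axes from 0. The left ratio is 3.60 to 4.31 in the siATF4 libraries and at most 1.04 in the others, and the right ratio is lower in Srf than in DMSO libraries of siCtrl and siY/T cells and 0.551 to 0.562 in siATF4 cells.

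The comparisons were then read across the 10 genes against the share of all tested genes that were called. With siY/T in DMSO, EIF2AK1 and DELE1 rose and EIF2AK2, PPP1R15A, EIF2S1 and EIF2S2 fell, which is 2 and 4 of 10, where 37.3% of all genes rose and 22.8% fell. Only EIF2S2 also passed the size threshold of the study's methods, an absolute log2 change of 0.58, which 14.6% of all genes did. The direction of the whole transcriptome depended on the scaling here, since 5043 genes rose and 3079 fell in CPM and 3842 rose and 4156 fell after quantile normalization. The calls of DELE1, PPP1R15A, EIF2S1 and EIF2S2 passed in all 23 other fits. EIF2AK1, with a change of 0.12, and EIF2AK2, with -0.19, each lost the call without either library of siCtrl DMSO cells or without siY/T DMSO replicate 1, with adjusted p of 0.0549 to 0.0833 and 0.0973 to 0.318. EIF2AK1 was also not called with TMM scaling (0.056, adjusted p = 0.253), edgeR (0.056, adjusted p = 0.264) or DESeq2 (0.042, adjusted p = 0.492), and EIF2AK2 not with no filter on low genes (adjusted p = 0.0773). Neither was called when only the groups compared were fitted (0.0881 and 0.0967). EIF2AK4, at -0.058 by limma, was called with TMM scaling (-0.12, adjusted p = 0.029), edgeR (0.0328) and DESeq2 (0.0263).

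With siY/T in Sorafenib, EIF2AK1, EIF2B5 and DELE1 rose and PPP1R15A and EIF2S2 fell, so 3 and 2 of 10 were called where 30.2% of all genes rose and 18.8% fell. None of the 10 passed the size threshold as well, by limma at an adjusted or an unadjusted p under 0.05, against 9.95% of all genes. Here 4079 genes rose and 2535 fell in CPM, against 3146 and 3225 after TMM scaling and 3174 and 3337 after quantile normalization. The libraries of siY/T DMSO cells entered here only through the shared estimate of spread. Without replicate 1 or replicate 2 of that group, EIF2AK2, EIF2AK3 and EIF2S1 kept their changes of -0.13, -0.15 and -0.11. More members were then called, and so were more of all genes. After quantile normalization 9 passed. The rise of EIF2AK1 by 0.14 lost its call without siCtrl Srf replicate 2 (adjusted p = 0.0687) or siY/T Srf replicate 2 (0.0779), and with TMM scaling (0.082, adjusted p = 0.114), edgeR (0.083, adjusted p = 0.121) or DESeq2 (0.085, adjusted p = 0.156).

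With siATF4 in DMSO, EIF2AK1 fell and PPP1R15A, EIF2S1, EIF2S2, EIF2B5 and DELE1 rose, which is 1 and 5 of 10, where 34.4% of all genes fell and 33.4% rose. PPP1R15A alone passed the size threshold as well, which 22.7% of all genes did. The median log2 change of the 10 was 0.13 against -0.0013 over all genes. The rise of EIF2S2 by 0.13 was lost without siATF4 DMSO replicate 2 (adjusted p = 0.0762). With siATF4 in Sorafenib, 6 of 10 rose, namely EIF2AK2, EIF2AK3, EIF2AK4, PPP1R15A, EIF2S1 and EIF2B5, and DELE1 fell, where 35.8% of all genes rose and 37.4% fell. PPP1R15A, EIF2S1 and EIF2B5 passed the size threshold too, against 28.9% of all genes. The median of the 10 was 0.19 against -0.0082. The rise of EIF2AK4 by 0.11 was lost when any of 7 single libraries was left out, and after quantile normalization (0.072, adjusted p = 0.148). Among these libraries were those of siCtrl DMSO and siATF4 DMSO cells, which are not in this comparison. Without them the change stayed at 0.11, and only the shared estimate of spread differed. Without siATF4 Srf replicate 1 the change was 0.065. The siY/T and siATF4 comparisons share the siCtrl libraries, so their values are given side by side and were not correlated.

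**Figure D4:**
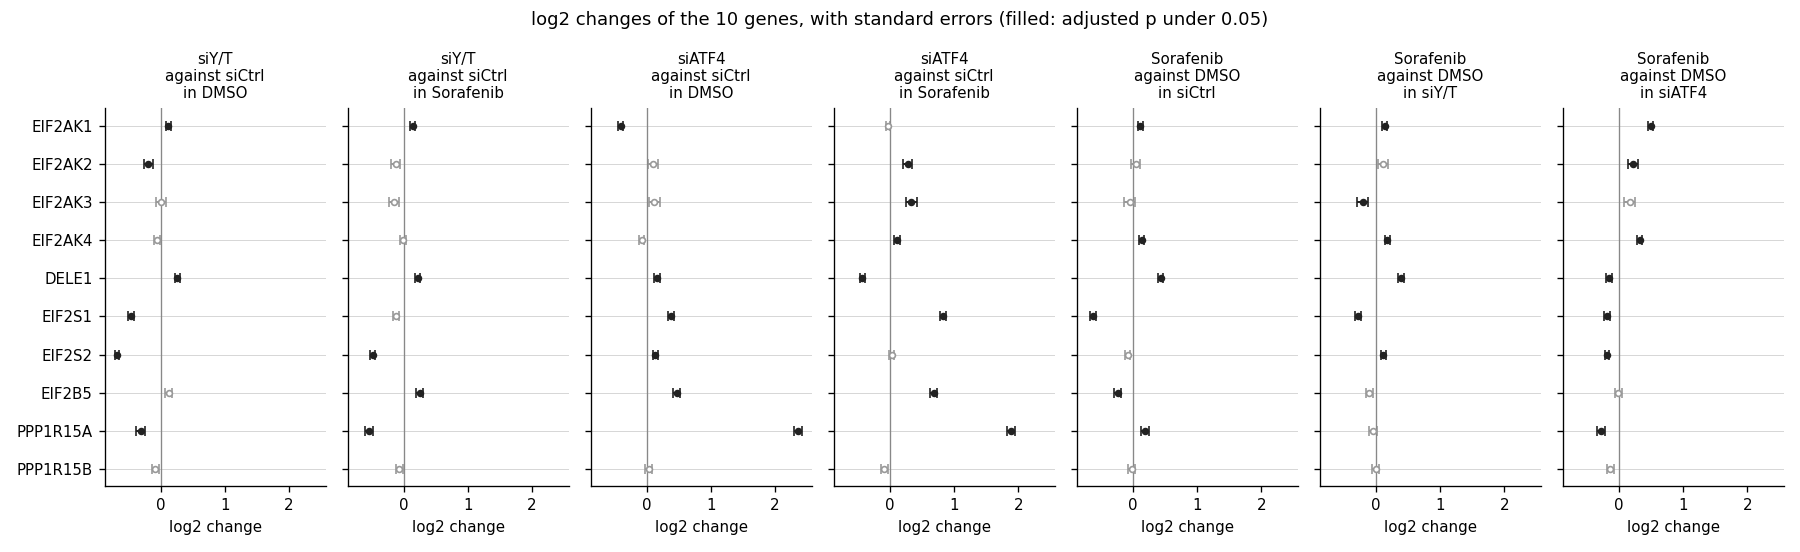
log2 change of each gene with its standard error in the 7 comparisons, where filled points had a limma adjusted p under 0.05. PPP1R15A with siATF4 lies at 2.35 in DMSO and 1.89 in Sorafenib, and every other point lies between -0.68 and 0.82.

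With Sorafenib in siCtrl cells, 4 of 10 rose (EIF2AK1, EIF2AK4, PPP1R15A and DELE1) and 2 fell (EIF2S1 and EIF2B5), where 36.3% of all genes rose and 26.9% fell. EIF2S1 alone passed the size threshold as well, which 17.5% of all genes did. DELE1, EIF2S1 and EIF2B5 passed in all 23 other fits. Without siCtrl DMSO replicate 1 only these 3 passed, and EIF2AK1 and EIF2AK4 were also lost without siCtrl DMSO replicate 2 (adjusted p = 0.0704 and 0.0564) or siCtrl Srf replicate 1 (0.104 and 0.0831). The rise of EIF2AK1 by 0.11 was not called with TMM scaling (0.083, adjusted p = 0.0909), edgeR (0.083, adjusted p = 0.0987) or DESeq2 (0.073, adjusted p = 0.198), as given for EIF2AK4 above. In siY/T cells, 4 rose (EIF2AK1, EIF2AK4, EIF2S2 and DELE1) and 2 fell (EIF2AK3 and EIF2S1), where 29.5% of all genes rose and 23.5% fell, and none passed the size threshold at either p, against 9.97% of all genes. Without siY/T Srf replicate 2, 3 passed in place of 6. The fall of EIF2AK3 by 0.21 had an adjusted p of 0.0497 and was lost in 11 of the 12 fits that left out a library, being -0.058 without siY/T DMSO replicate 2. Where the library left out was of siCtrl or siATF4 cells, the change stayed at -0.21 and only the shared estimate of spread differed. The rise of EIF2AK1 by 0.14 was lost without siY/T Srf replicate 2 (adjusted p = 0.0767). The rise of EIF2S2 by 0.11 was lost without siY/T DMSO replicate 2 (adjusted p = 0.0969) or either siY/T Srf library (0.079 and 0.0701), and with TMM scaling (0.0982), edgeR (0.111) or DESeq2 (0.117). When only the groups compared were fitted, EIF2AK1 (0.104), EIF2AK3 (0.171), EIF2AK4 (0.054) and EIF2S2 (0.164) lost their calls with Sorafenib in siY/T cells.

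With Sorafenib in siATF4 cells, EIF2AK1, EIF2AK2 and EIF2AK4 rose and PPP1R15A, EIF2S1, EIF2S2 and DELE1 fell, so that 3 and 4 of 10 were called where 27.9% of all genes rose and 22.4% fell. None passed the size threshold at either p, against 8.63% of all genes. Without siATF4 DMSO replicate 2, 4 passed in place of 7. The kinases that were called all rose, and the other called members all fell. The interaction of siATF4 and Sorafenib passed for 6 of 10, where 41.1% of all genes passed, and the interaction of siY/T and Sorafenib for EIF2S1 and EIF2S2, 2 of 10, where 22% of all genes passed. Without any of the 5 libraries named for EIF2S2 above, the latter count was 1.

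**Figure D5:**
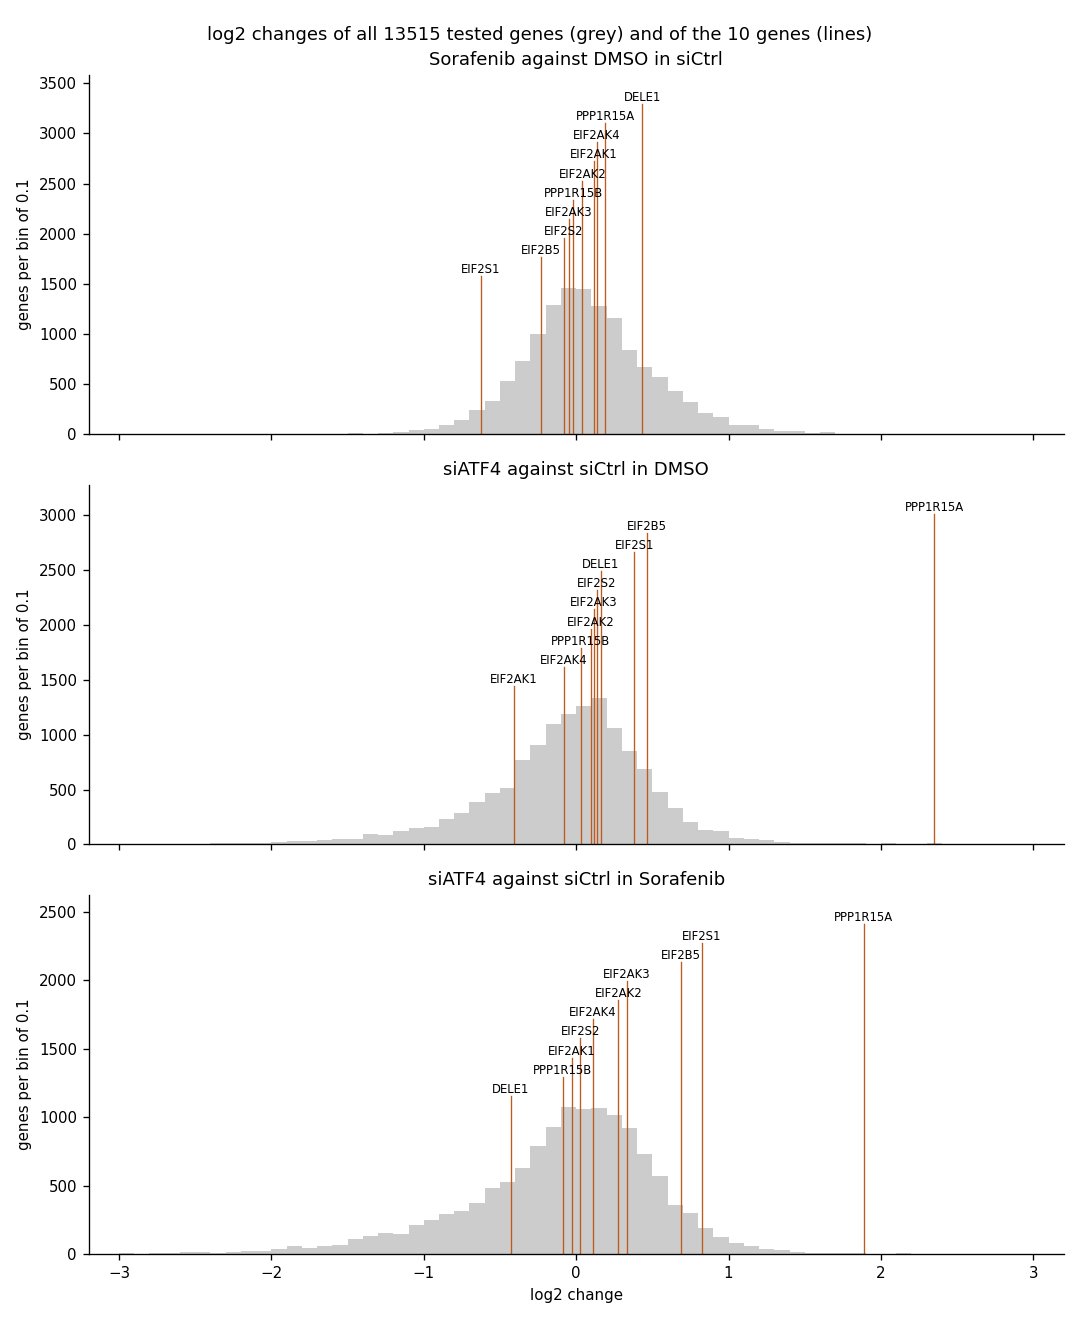
Number of genes per bin of 0.1 of log2 change over all 13515 tested genes (grey bars) for Sorafenib in siCtrl cells (top) and siATF4 in DMSO (middle) and in Sorafenib (bottom), with the 10 genes as labelled lines whose heights only separate the labels. PPP1R15A lies in the upper tail in both siATF4 comparisons, and most other members lie within the bulk of all genes.

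The remaining parts of the pathway were counted from lists fixed by name, and each count is to be read beside the shares of all genes that rose and fell in the same comparison. Of 10 further genes of eIF2, eIF2B and start-codon selection, 0 rose and 5 fell with siY/T in DMSO (all genes 37.3% and 22.8%), with a median log2 change of -0.16 against 0.069 over all genes. EIF5, the GTPase activator of eIF2, fell by 0.77 and MCTS1, a recycling factor, fell by 0.36, and the other 3 were EIF2A, DENR and EIF2B3. In Sorafenib 1 rose, EIF2S3, and 3 fell (30.2% and 18.8%), EIF5 by 0.50, MCTS1 by 0.23 and EIF2B3 by 0.14, with a median of -0.036 against 0.052. With siATF4 in DMSO 5 rose, led by DENR at 0.37, and EIF2B4 fell by 0.33 (33.4% and 34.4%), with a median of 0.16 against -0.0013. In Sorafenib 7 rose and EIF2S3 and EIF2B4 fell (35.8% and 37.4%), with a median of 0.30 against -0.0082, where EIF5 rose by 0.79 and EIF2B3 by 0.56. EIF5 was at 283 and 291 CPM in siCtrl DMSO, 238 and 227 in siCtrl Srf, 169 and 169 in siY/T DMSO and 415 and 393 CPM in siATF4 Srf cells. With Sorafenib in siCtrl cells 3 rose, led by EIF2D at 0.38, and 5 fell, led by MCTS1 at -0.33 (36.3% and 26.9%), with a median of -0.16 against 0.052. In siY/T cells 3 rose, led by EIF2A at 0.52 and EIF2S3 at 0.36, and 4 fell (29.5% and 23.5%), and in siATF4 cells 3 rose, EIF2A, EIF5 at 0.25 and EIF2D at 0.25, and 0 fell (27.9% and 22.4%). The medians there were -0.050 against 0.038 and 0.054 against 0.029.

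Among 10 regulators of the kinases and phosphatases, PRKRA, an activator of PKR, was at 29.4 and 29.7 CPM in siCtrl DMSO cells against 20.9 and 20.5 CPM in siATF4 DMSO cells, and fell by 0.50 (adjusted p = 1.58e-06). With Sorafenib PRKRA rose in siATF4 cells by 0.52 (adjusted p = 4.26e-06), and EIF2AK1 had the same directions in those comparisons. Both comparisons use the siATF4 DMSO libraries, with opposite sign, so the fall and the rise are not independent of each other. IMPACT, an inhibitor of GCN2, rose with Sorafenib by 0.44 in siCtrl, 0.46 in siY/T and 0.44 in siATF4 cells, beside the rises of EIF2AK4 given above, and with siATF4 by 0.38 in DMSO and 0.39 in Sorafenib. DNAJC3, the chaperone that inhibits PERK and PKR, fell by 0.43 with Sorafenib in siCtrl cells and rose by 0.24 with siY/T in Sorafenib. OMA1, the protease upstream of DELE1, fell by 0.24 with siY/T in DMSO, and NCK1, an adaptor, fell by 0.26 with siATF4 in Sorafenib. PPP1CA, a catalytic subunit of protein phosphatase 1, rose by 0.18 with siY/T in DMSO and fell with Sorafenib by 0.16 in siCtrl and by 0.35 in siY/T and in siATF4 cells. In the 7 comparisons between 1 and 5 of the 10 rose, where 27.9% to 37.3% of all genes did, and between 0 and 4 fell, where 18.8% to 37.4% did, and the medians of the list lay between -0.11 and 0.11.

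The outputs of the response, genes that ATF4 and its partners are known to switch on, were counted next, with ATF4, itself an siRNA target, left out. With Sorafenib in siCtrl cells 12 of 13 rose and ATF5 fell (all genes 36.3% and 26.9%), with a median log2 change of 1.14 against 0.052 over all genes, while the 10 components had a median of 0.011. CHAC1, a glutathione-degrading enzyme, went from 3.71 and 3.40 CPM to 18.0 and 20.3 CPM, and NUPR1, a stress-induced transcription regulator, from 0.876 and 0.954 CPM to 9.82 and 9.91 CPM. In siY/T cells 11 rose, led by NUPR1 at 2.07 and CHAC1 at 1.42, and ATF5 and ATF3 fell (29.5% and 23.5%), with a median of 0.63 against 0.038. In siATF4 cells 5 rose and 5 fell (27.9% and 22.4%), led by CEBPB at -0.99 and SESN2 at -0.66, with a median of -0.11 against 0.029. The interaction of siATF4 and Sorafenib passed as negative for 12 of 13 and as positive for 1. Of all 13515 genes, 2945 passed as negative and 2608 as positive there (41.1% in either direction). The interaction of siY/T and Sorafenib passed as negative for 10 of 13 and as positive for 1. Of all genes, 1923 passed as negative and 1055 as positive there (22% in either direction). With siATF4 in DMSO 6 rose and 7 fell (33.4% and 34.4%). DDIT3, the transcription factor CHOP and a known activator of PPP1R15A, went from 26.2 and 25.3 CPM to 107 and 107 CPM, and CEBPB, a transcription factor, rose by 2.24, while VLDLR, ASNS, NUPR1, DDIT4, CHAC1, ATF5 and ATF3 fell. With siATF4 in Sorafenib 1 rose, DDIT3 by 0.32, and 10 fell (35.8% and 37.4%). PPP1R15A rose by 1.89 in that comparison, and a link between it and DDIT3 was not tested. There NUPR1 fell by 3.87 and DDIT4 fell by 3.29 on the log2(CPM + 0.5) scale. That scale understates the change of NUPR1, at 0.228 and 0.193 CPM in siATF4 Srf cells. Among siCtrl DMSO, siCtrl Srf and siATF4 Srf cells, NUPR1 reached the filter of 1 CPM only in siCtrl Srf cells. In siY/T cells 8 fell and 4 rose in DMSO (22.8% and 37.3%), led by ASNS, which fell by 1.53, and SESN2, which rose by 1.51, and 9 fell and 2 rose in Sorafenib (18.8% and 30.2%), led by ATF3, which fell by 1.49, and ASNS, which fell by 1.26.

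PERK is itself a sensor of the unfolded protein response, and 12 further genes of that response were counted. With Sorafenib in siCtrl cells 2 rose, HERPUD1 by 0.50 and ERN1, where 36.3% of all genes rose. In the same comparison 6 fell, among them MANF by 0.60 and HSPA5, the chaperone BiP, by 0.18, where 26.9% of all genes fell. The median of the list was -0.15 against 0.052 over all genes. With Sorafenib in siY/T cells 3 rose and 6 fell (29.5% and 23.5%), led by SDF2L1 at -0.59 and MANF at -0.54, and in siATF4 cells 0 rose and 7 fell (27.9% and 22.4%), led by XBP1 at -0.50 and MANF at -0.45. The medians there were -0.042 against 0.038 and -0.23 against 0.029. With siATF4 in DMSO 7 rose, led by ERN1, the sensor IRE1, by 0.97, and 4 fell, led by EDEM1, which fell by 0.86 (33.4% and 34.4%), with a median of 0.24 against -0.0013. In Sorafenib 5 rose, led by SDF2L1 at 0.90, and 4 fell, led by EDEM1 at -1.14 (35.8% and 37.4%). With siY/T 4 rose and EDEM1 fell in both DMSO (37.3% and 22.8%) and Sorafenib (30.2% and 18.8%), led by CRELD2 at 0.46 and DNAJB9 at 0.30 in DMSO and by DNAJB9 at 0.64 and EDEM1 at -0.30 in Sorafenib. EIF2AK3 itself passed in 2 of the 7 comparisons.

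EIF2AK2 was set beside 16 further interferon-stimulated genes, of which 15 were tested. With siY/T in DMSO 14 of 15 rose and 0 fell (all genes 37.3% and 22.8%), led by IFIT1 at 1.52 and IFI44 at 1.21, with a median of 0.85 against 0.069 over all genes, while EIF2AK2 had -0.19. In Sorafenib 11 rose and 0 fell (30.2% and 18.8%), led by OAS2 at 0.92 and IFI44 at 0.89, with a median of 0.41 against 0.052. With siATF4, 0 rose and 13 fell both in DMSO (33.4% and 34.4%) and in Sorafenib (35.8% and 37.4%), with medians of -0.54 and -0.81, while EIF2AK2 had 0.096 and 0.28. IFIT1 led both, with -2.25 and -3.05, followed by OAS2 at -1.60 in DMSO and OASL at -1.36 in Sorafenib. With Sorafenib in siCtrl cells 11 rose and 2 fell (36.3% and 26.9%), led by IFIT1 at 1.99 and IFIT2 at 1.13, with a median of 0.56 against 0.052, and EIF2AK2 had 0.041. With Sorafenib 6 rose and 1 fell in siY/T cells (29.5% and 23.5%), where IFIT2 had 0.80 and IFIT1 0.76, and 9 rose and 1 fell in siATF4 cells (27.9% and 22.4%), where they had 1.22 and 1.19. With siY/T in Sorafenib EIF2AK2 had -0.13, and with Sorafenib it had 0.11 in siY/T cells and rose by 0.22 in siATF4 cells. Its calls at -0.19 and 0.22 were each lost in some other fits, as given above. The difference between EIF2AK2 and this list was not tested.

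For the 6 members whose group means spanned at least 1.5-fold, the genes with the most similar log2 values over the 12 libraries were looked up among the 11152 genes that averaged 5 CPM or more. PPP1R15A was most like CSNK1A1 (r = 0.996), ZFAND2A (0.994) and BAG1 (0.994). EIF2S1 was most like LYAR (0.997), GTPBP4 (0.996) and BRIX1 (0.994), and EIF2S2 like MTHFD1L (0.994), RABGGTB (0.986) and NPM1 (0.985). EIF2AK1 was most like ATXN10 (0.984), CADM1 (0.982) and HSD17B4 (0.976), EIF2B5 like E2F6 (0.982), DHX30 (0.981) and RER1 (0.980), and DELE1 like POLL (0.985), RNF123 (0.979) and ZNF581 (0.973). Among the members, EIF2S1 and PPP1R15A had the highest correlation (r = 0.848) and EIF2S1 and DELE1 the lowest (r = -0.833). The 12 points fall into 6 groups with shared siRNAs and treatments and are not independent, so these values are descriptions.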

How the data were processed

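Poly(A) RNA of 12 HLE libraries, 6 groups of 2, was sequenced. The authors aligned unique reads to hg19 with STAR, counted them over RefSeq exons with QuasR, and deposited CPM values per Entrez identifier. The labels and the study's text differ in kit, instrument, Sorafenib dose and number of replicates, and the labels were followed. The deposited CPM were whole multiples of 1 read for 100% of values in each library (tolerance 0.001 reads), which gave 41408348 to 53619732 reads per library. Of 26258 identifiers, 26111 were named.

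The 13515 genes that reached 1 CPM in 2 or more libraries were tested with limma 3.58.1 (R 4.3.3, trended prior) on log2(CPM + 0.5), which understates changes of low genes. A single fit held all 12 libraries, with 6 residual degrees of freedom, for 7 comparisons and 2 interactions, adjusted by Benjamini-Hochberg over all genes. A gene was called at an adjusted p under 0.05, and "rose" or "fell" is used only of called genes. A total of 23 other fits changed the pseudocount, filter, scaling, samples, block or tool, or left out a library. The other tools were edgeR 4.0.16 and DESeq2 1.42.0 on the recovered reads. The block within each treatment was chosen after seeing the data. Leaving out a library of a group outside a comparison cannot move its log2 change. Such fits vary only the shared estimate of spread and the adjusted p, so counts of fits passed include them. On simulated counts for siATF4 against siCtrl in DMSO, limma recovered 200 of 200 genes changed by 1.5 on the log2 scale among 13208 genes, with 14 wrong calls. Every member change except those of PPP1R15A with siATF4 was smaller than 1.5 in size. The simulation therefore does not show how well such smaller changes are recovered. The members, lists and tests were chosen with earlier results of these data known. The text names all 10 members, the siRNA targets, the 2 genes of each list with the largest change among those called in each of the 7 comparisons, and the 3 genes most correlated with each member that spanned at least 1.5-fold. The 2 of the interactions are not all named, 1 listed gene is not reported here, and further list genes were named after their values were seen.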

Additional observations from a re-analysis of the deposited data

Results flagged for a closer look

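For 8 results, the Sorafenib effect differed between siRNAs by the interaction term of limma. These were 2 of 10 members for siY/T, where 22% of all genes passed, and 6 of 10 for siATF4, where 41.1% did. Against siCtrl cells, the difference in siY/T cells was 0.3469 for EIF2S1 (adjusted p = 0.00345) and 0.1956 for EIF2S2 (adjusted p = 0.0214). In siATF4 cells it was 0.3781 for EIF2AK1 (adjusted p = 0.00015), 0.1887 for EIF2AK4 (adjusted p = 0.0245), 0.4423 for EIF2S1 (adjusted p = 0.000212) and 0.2217 for EIF2B5 (adjusted p = 0.036), and it was -0.4639 for PPP1R15A (adjusted p = 0.00123) and -0.5881 for DELE1 (adjusted p = 1.12e-05). The differences of EIF2S2, EIF2AK4 and EIF2B5 lost their calls in fits that left out 1 library, as given above. With 2 libraries per group, no group was large enough to look for single libraries that stand apart.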

How the results depend on the processing

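Of 2070 alternative values for the members, 1888 kept their direction and side of the threshold. Of the others, 96 lost a call, 61 gained one and 25 changed sign, none of them a called value. Many fits left out a library of a group outside the comparison or interaction, which leaves its log2 change as it was. The direction of those values was fixed in advance, so the 1888 overstate how well directions held. With the size threshold of 0.58, at an adjusted or an unadjusted p, the members called numbered 1 and 0 with siY/T in DMSO and Sorafenib, 1 and 3 with siATF4, 1, 0 and 0 with Sorafenib in siCtrl, siY/T and siATF4 cells, and 0 and 1 for the siY/T and siATF4 interactions. Quantile normalization gave 9 with siY/T in Sorafenib and 1 for the siY/T interaction, and a fit of only the groups compared gave 2 with Sorafenib in siY/T cells. Leaving out 1 library gave 4 to 7 with siY/T in DMSO, 4 to 8 with siY/T in Sorafenib, 5 to 6 and 6 to 7 with siATF4 in DMSO and Sorafenib, 3 to 7, 3 to 6 and 4 to 9 with Sorafenib in siCtrl, siY/T and siATF4 cells, and 1 to 3 and 4 to 7 for the interactions. In those fits the lone library was assumed to vary like the other groups. The number of all genes called also changed with the fit, so these counts do not describe the members alone.

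Signs changed for EIF2AK3 with siY/T in DMSO under TMM (-0.0528), quantile normalization (-0.1059), edgeR (-0.05198), DESeq2 (-0.06563) and without 1 library (-0.1433 to 0.1566). Quantile normalization gave -0.0338 for EIF2S2 with siATF4 in Sorafenib, 0.01954 for EIF2S2 with Sorafenib in siCtrl cells, and -0.03361 for EIF2AK1 and -0.0097 for PPP1R15B in the siY/T interaction. DESeq2 gave -0.0003013 for EIF2AK2 with Sorafenib in siCtrl cells. Without 1 library the ranges that crossed 0 were -0.04075 to 0.009171 for EIF2AK4 with siY/T in Sorafenib, -0.007945 to 0.07047 for PPP1R15B with siATF4 in DMSO, -0.04458 to 0.005592 for PPP1R15B with Sorafenib in siCtrl cells, -0.008594 to 0.2231 for EIF2AK2 and -0.07283 to 0.06162 for PPP1R15B with Sorafenib in siY/T cells, -0.02945 to 0.005036 for EIF2B5 with Sorafenib in siATF4 cells, and -0.0052 to 0.04836 for EIF2AK1, -0.04982 to 0.1818 for EIF2AK2 and -0.05334 to 0.08111 for PPP1R15B in the siY/T interaction. The cause was not tested.

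With the replicate number as a block, 1 member call changed, EIF2AK3 with Sorafenib in siY/T cells (-0.2082, adjusted p = 0.0623), so 5 in place of 6 were called there. Deviations of same-numbered libraries correlated at -0.28 to 0.0054 over 9 group pairs across treatments, at 0.036 to 0.19 over 3 pairs within DMSO, of which 1 was over 0.1, and at 0.10 to 0.16 over 3 pairs within Sorafenib, all over 0.1. The labels do not say that the number marks a shared batch or day. A block within each treatment, chosen after seeing the data, lost no call and gained 4: EIF2B5 with siY/T in DMSO (0.1219, adjusted p = 0.0467), EIF2S1 with siY/T in Sorafenib (-0.1138, adjusted p = 0.0348), PPP1R15B with Sorafenib in siATF4 cells (-0.1391, adjusted p = 0.0273) and PPP1R15A in the siY/T interaction (-0.2307, adjusted p = 0.0437). Depth was not limiting for the members, with at least 822 reads each.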
